A study of Mus musculus with 217 samples.

Results

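The mRNAs described here code for chaperones and for their J protein partners, less 8 named genes of these families. Members were taken by gene symbol. They are the protein-coding genes whose symbols start with Hspa, Hspb, Hspd, Hspe, Dnaja, Dnajb, Dnajc or Cct followed directly by a number. Genes named Hsp90 followed by letters and a number were added. Hspbp1 and Hspbap1 thus do not belong. Left out were Hspa1a, Hspa1b, Hspa5, Hspa8, Hsp90aa1, Hsp90b1, Dnajb1 and Dnajb11. These include the chaperones best known for induction by heat or endoplasmic reticulum stress, and Hspa8, the constitutive heat shock cognate protein. The rule gave 72 members of the 54532 genes in the count tables, of which 21995 are protein-coding. The members comprise 9 genes of HSP70 and HSP110 type, Hsp90ab1 as the 1 HSP90 gene, 4 class A, 11 class B and 28 class C J proteins, 9 genes of the cytosolic chaperonin TRiC, 2 of the mitochondrial chaperonin and 8 small heat shock proteins.

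Chaperones bind unfolded or misfolded proteins and help them to fold or to be degraded. HSP70 proteins do so in cycles of ATP hydrolysis that J proteins start and to which J proteins deliver substrates, TRiC encloses actin, tubulin and other cytosolic proteins, Hspd1 and Hspe1 form the equivalent chamber in mitochondria, and small heat shock proteins hold unfolded proteins without ATP. In cells and animals with expanded huntingtin, the product of the gene mutated in Huntington's disease, several of these proteins are known to act on its aggregation, among them the J protein Dnajb6 and TRiC.

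Libraries of mRNA came from the striatum and the cerebral cortex of C57BL/6 mice aged 6 months or 12 months, and the question was how far lowering mutant huntingtin (mHtt) at different ages changes the transcriptome. LacQ140 mice carried 1 Htt allele with a long CAG repeat under Lac operators (Hdh(LacO-140Q/+)) and, like every mouse here, a Lac repressor transgene driven by the ubiquitous beta-actin promoter; the repressor keeps the allele low unless IPTG, a lactose analog given in water or chow, releases it. The groups were LacQ140 with IPTG from embryonic life to the end, LacQ140_A without IPTG (always lowered), LacQ140_2M and LacQ140_8M with IPTG withdrawn at 2 or 8 months, and mice with no expanded allele (Hdh(LacO-+/+)) without IPTG (WT) or with it throughout (WT + IPTG). Each of the 22 combinations of group, tissue and age had 10 libraries, or 9 in the 12-month striatum of WT, LacQ140 and LacQ140_8M, with females and males in each, and the 217 libraries held 33292057 to 68038831 counts. The labels call the 6-month and the 12-month mice batches of their own, and the tables of both ages were deposited apart, so ages were not compared.

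Expression of Htt, counted from both alleles together, checked the labels. In the 6-month striatum its median was 113 CPM (counts scaled to library size) in WT, 112 in WT + IPTG, 99.6 in LacQ140, 87.9 in LacQ140_A and 91.4 in LacQ140_2M. In the 12-month striatum it was 137, 149, 113, 90.9 and 101 CPM in the same order, and 112 in LacQ140_8M. In the striatum LacQ140_A and LacQ140_2M thus had the lowest medians at both ages, while LacQ140_8M lay close to LacQ140 at 12 months. In the 12-month cortex the median was 25.3 CPM in WT, 26.1 in WT + IPTG, 23.4 in LacQ140, 16.6 in LacQ140_A and 16.9 in LacQ140_2M, and that of LacQ140_8M was likewise below LacQ140. Recovery of long mRNAs was unlike in those cortical libraries, as given below, so these medians are not read against those of the striatum. Within the striatum the spiny neuron markers checked the tissue: their summed level was 2461 to 5832 CPM across all libraries at 12 months and 2709 to 5345 CPM at 6 months, and all 5 of 5 fell in LacQ140 against WT + IPTG at both ages.

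Some libraries stood apart before any comparison. The heat score, which is the mean log2 CPM of 5 chaperone genes outside the members (Hspa1a, Hspa1b, Hspa8, Hsp90aa1 and Dnajb1), of which Hspa8 is best known as constitutive, was 7.58 in the striatum and 7.74 in the cortex of the 6-month WT male M3. The highest score in any other 6-month group was 6.32 in the striatum and 6.60 in the cortex. In the 12-month striatum all 5 WT + IPTG females scored 6.78 to 7.35, whereas the 5 males of that group scored 5.49 to 6.44 and the 4 WT females 5.78 to 5.95. In the 12-month cortex of the WT + IPTG group the females scored 6.32 to 6.71, also all above the males at 5.95 to 6.30. The 12-month cortex differed in another way. The slope of log2 CPM on log2 transcript length over coding genes, a measure of how well long mRNAs were recovered, was -0.594 to -0.129 there, against -0.008 to 0.442 in the 6-month cortex, 0.068 to 0.366 in the 6-month striatum and 0.134 to 0.45 in the 12-month striatum. The summed level of 4 cortical excitatory neuron markers was 303.8 CPM in the 12-month LacQ140 striatum of male M2, against a group median of 8.23 CPM and medians of 673 to 804 CPM in the 12-month cortex groups. Choroid plexus markers summed to as much as 701 CPM in the 6-month and 400.3 CPM in the 12-month WT + IPTG striatum, with group medians of 23.7 and 19.8 CPM, and to as much as 2021 CPM in the cortex. In the 12-month cortex 6 of 10 LacQ140 libraries were above 100 CPM in these markers, with a group median of 564 CPM, against 2 or 3 of 10 in each other group and medians of 6.92 to 17.2 CPM. Fits without WT M3 or LacQ140 M2, and fits by sex at 12 months, are given beside the calls they change.

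The members were an abundant set. Together they held a median of 6235 CPM in the 6-month striatum, 5898 in the 6-month cortex, 6306 in the 12-month striatum and 5684 in the 12-month cortex. Of the 72, 59 were above 1 CPM in the mean of every group, 11 of them above 100 CPM, and 5 (Dnajb7, Dnajb8, Dnajc22, Dnajc5b and Dnajc5g) were below 0.1 CPM in every group. The 8 others, such as Cct6b, Cct8l1, Hspb7 and Hspb9, lay in between. Hsp90ab1, the constitutive cytosolic HSP90, led per length in both tissues, with 581 ± 53.7 CPM per kb of transcript (SD, n = 10) in the 6-month WT striatum and 445 ± 36.7 in the 6-month WT cortex. Hspe1 ranked next in both at 6 months, with 110 ± 21.6 CPM per kb in that cortex, and then came Cct5 with 99.6 ± 7.41 and 93.6 ± 7.82. Dnajc8, a J protein bound to the splicing machinery, and Cct7 followed in the striatum with 92.4 ± 7.58 and 87.4 ± 5.52 CPM per kb, values whose spreads overlap. In the cortex Cct7 stood at 82.8 ± 6.86 and Hspa9, the mitochondrial HSP70, at 72.8 ± 6.74 CPM per kb. In the 12-month WT striatum (n = 9) the order after Hsp90ab1 (585 ± 36.9) was Dnajc7 (92.1 ± 5.15), Cct5 (82.8 ± 2.43) and Dnajc8 (81.1 ± 4.19), and Hspe1 was not among the first 6. In the 12-month WT cortex (n = 10) Hspe1 again came after Hsp90ab1 (437 ± 41.2), and Cct5 followed with 156 ± 20.6 CPM per kb.

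Expression of mHtt was tested as LacQ140 against WT + IPTG, and in the striatum the share of members called was near that of all genes at both ages. At 6 months Hspa2 rose and Hspa12b, Dnajb5 and Dnajc2 fell. At 12 months Hspa2, Dnajc4 and Hspb11 rose and Hspa12b, Dnajb5, Dnajc8, Hspb8 and Hspb1 fell. A gene was called when edgeR's quasi-likelihood test with Benjamini-Hochberg adjustment over all genes gave an adjusted p under 0.05 and the higher group exceeded the lower by at least 20%. The 4 of 72 members called at 6 months (5.56%) stand beside 7.93% of all 35808 genes tested (3.97% higher and 3.96% lower), and the 8 of 71 at 12 months (11.3%) beside 9.44% of 35386 (4.58% higher and 4.86% lower). Above 1 CPM, where most members lie, 6.67% of members and 15.5% of all genes were called at 6 months, and 13.3% and 17.8% at 12 months. The median log2 fold change of the members was -0.034 at 6 months and 0.006 at 12 months, against 0 for all genes at 6 months.

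**Figure D1:**
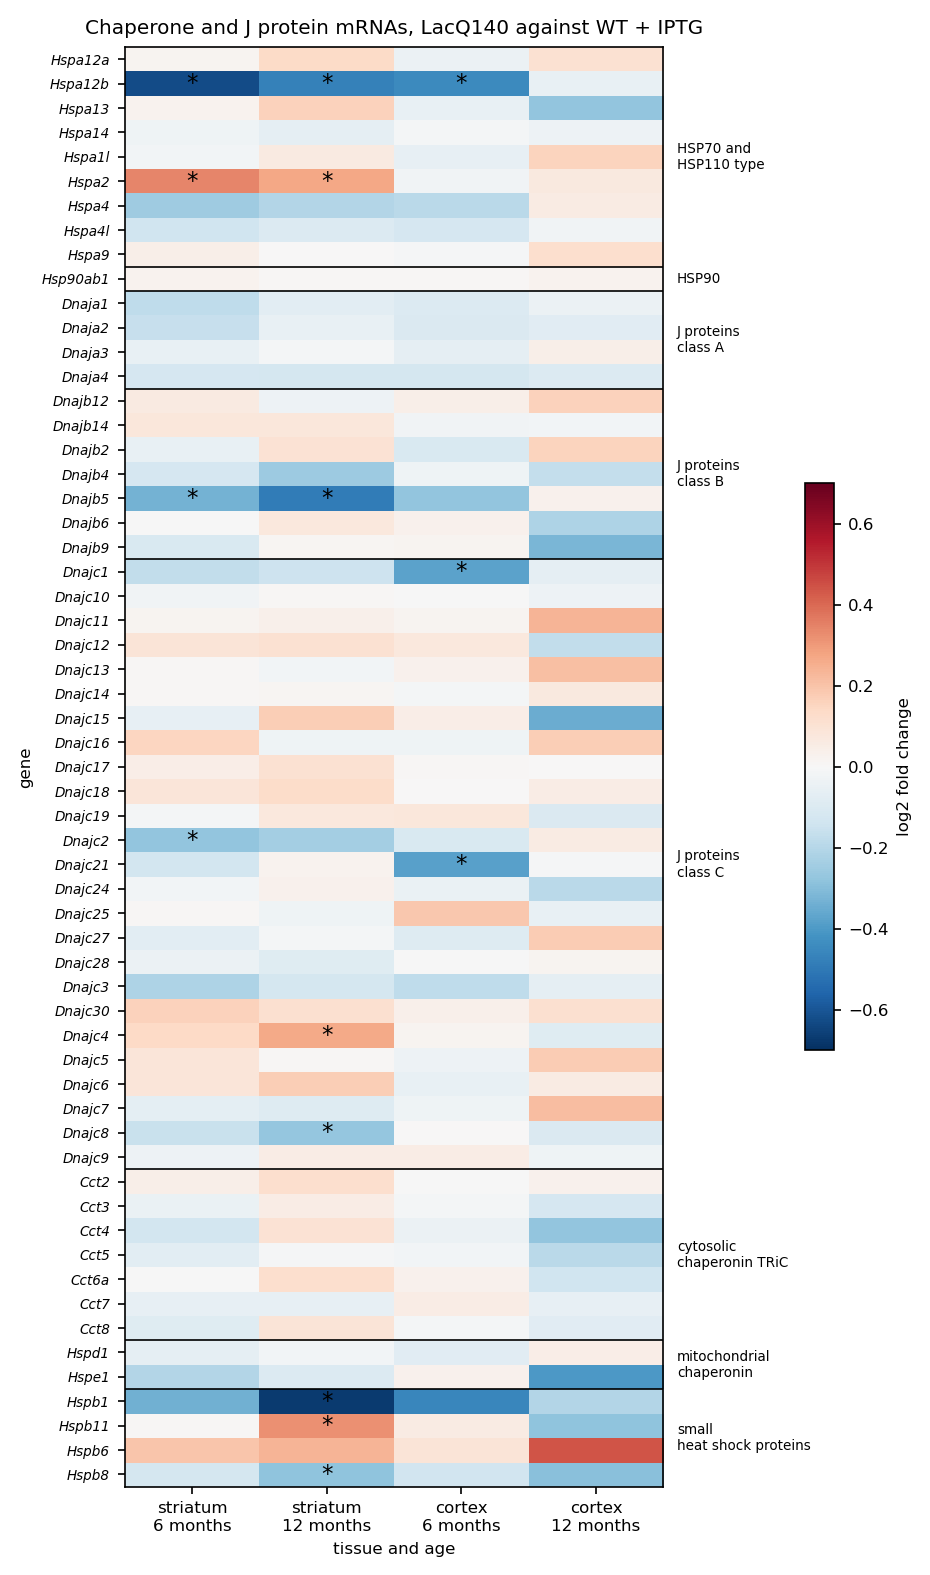
Log2 fold change of LacQ140 against WT + IPTG (colour scale, -0.7 to 0.7) for the 59 members above 1 CPM in every group, in rows grouped by role, with a column for each tissue and age; asterisks mark called members. Hspa12b is marked in 3 columns, Hspa2 and Dnajb5 in both striatal columns, and the 12-month cortex has no mark.

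Among the HSP70 type genes, Hspa2 (chr12:76404176-76406938, plus strand, GRCm38) gave the clearest separation. It codes for an HSP70 best known from the testis and also made in the brain. In the 6-month striatum its lowest, median and highest values were 31.7, 35.1 and 36.7 CPM in LacQ140, against 22.3, 27.7 and 30.5 CPM under WT + IPTG, so every LacQ140 library lay above every control library. The difference was 0.34 on the log2 scale (SE 0.0518, adjusted p = 1.81e-06), or 26.6%. In WT without IPTG the values were 26.2, 28.9 and 31.2 CPM, which also do not reach those of LacQ140. LacQ140_A and LacQ140_2M had medians of 31.7 and 31.3 CPM, between the controls and LacQ140, but neither fall from LacQ140 passed the test (log2 -0.14, adjusted p = 0.195, and log2 -0.15, adjusted p = 0.159). At 12 months LacQ140 ranged from 34.1 to 47.1 CPM and WT + IPTG from 29.2 to 37.5 CPM, with a difference of log2 0.27 (SE 0.0552, adjusted p = 1.65e-04). Without LacQ140 M2, the library high in cortical neuron markers, 6 members and 3089 genes in all were called at 12 months, against 8 and 3340 with it, and Hspa2 and Dnajc4 were not among them.

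The rise of Hspa2 was larger in the striatum than in the cortex at 6 months. Split by sex after the values were seen, Hspa2 and Hspa12b were called in females and in males of the 6-month striatum, beside 6.07% and 3.06% of all genes. Cortical medians at 6 months were 29.5 CPM for LacQ140 against 30.7 CPM for WT + IPTG (log2 -0.02, adjusted p = 0.981). The difference between the tissues in this change was itself log2 0.35 (SE 0.0686, adjusted p = 0.00146), in a test that called 1.12% of 37981 genes and no other member. At 12 months the same difference was 0.19 for Hspa2 and was not called.

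Hspa12b (chr2:131127280-131146321, plus strand) moved the other way and was the only member called in 3 of the 4 settings. It codes for an atypical HSP70 relative known mainly from endothelial cells. In the 6-month striatum it measured 4.82, 6.32 and 7.47 CPM (lowest, median, highest) in LacQ140 and 6.67, 9.33 and 12.5 CPM in WT + IPTG, and all 10 LacQ140 libraries were below the control median. The log2 fold change was -0.63 (SE 0.0851, adjusted p = 1.53e-07), or -35.3%. In the 12-month striatum it was -0.47 (SE 0.0909, adjusted p = 5.86e-05), and in the 6-month cortex -0.44 (SE 0.1075, adjusted p = 0.0224). The cortical libraries ran from 3.66 to 9.4 CPM with a median of 7.12 in LacQ140, from 8.07 to 12.1 with a median of 9.24 under WT + IPTG, and from 6.09 to 9.62 with a median of 8.26 under WT. LacQ140 and WT + IPTG overlapped there, and the cortical call was lost against both controls pooled (-0.30), in each sex alone and in 4 of 20 fits that left out 1 library. In WT without IPTG the striatal medians were 8.28 CPM at 6 months and 10.9 CPM at 12 months, above the 6.32 and 8.21 CPM of LacQ140.

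Hspa12b was also the 1 member that edgeR called in a lowered group against LacQ140. In the 6-month striatum it rose in LacQ140_2M against LacQ140 by log2 0.40 (SE 0.0857, adjusted p = 0.00382), where 1.26% of all genes were called (0.704% higher), and 9 of 10 LacQ140_2M libraries lay above the LacQ140 median. The LacQ140_2M values were 6.3, 8.61 and 9.57 CPM, close to the 6.97, 8.28 and 9.09 CPM of WT. In LacQ140_A the median was 7.47 CPM and the rise of 0.27 did not pass the test (adjusted p = 0.0808). At 12 months the differences from LacQ140 were 0.16 in LacQ140_A and 0.13 in LacQ140_2M, and neither was called.

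Endothelial markers were read beside Hspa12b. The summed level of Cldn5, Flt1 and Pecam1 was 115.13 to 149.99 CPM with a median of 125.35 in the 6-month LacQ140 striatum, 112.53 to 172.28 with a median of 149.65 in WT + IPTG, and 114.98 to 160.98 with a median of 143.38 in LacQ140_2M. None of the 3 was called there, with log2 fold changes of -0.19, -0.23 and -0.24. At 12 months the medians were 137 CPM in LacQ140 against 166 CPM for WT + IPTG, and Flt1 alone of the 3 was called (log2 -0.26). In the 6-month cortex they were 159 and 183 CPM, with none called. The part of these cells in the Hspa12b values was not tested, and in bulk tissue fewer cells of a type and less RNA per cell cannot be told apart.

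**Figure D2:**
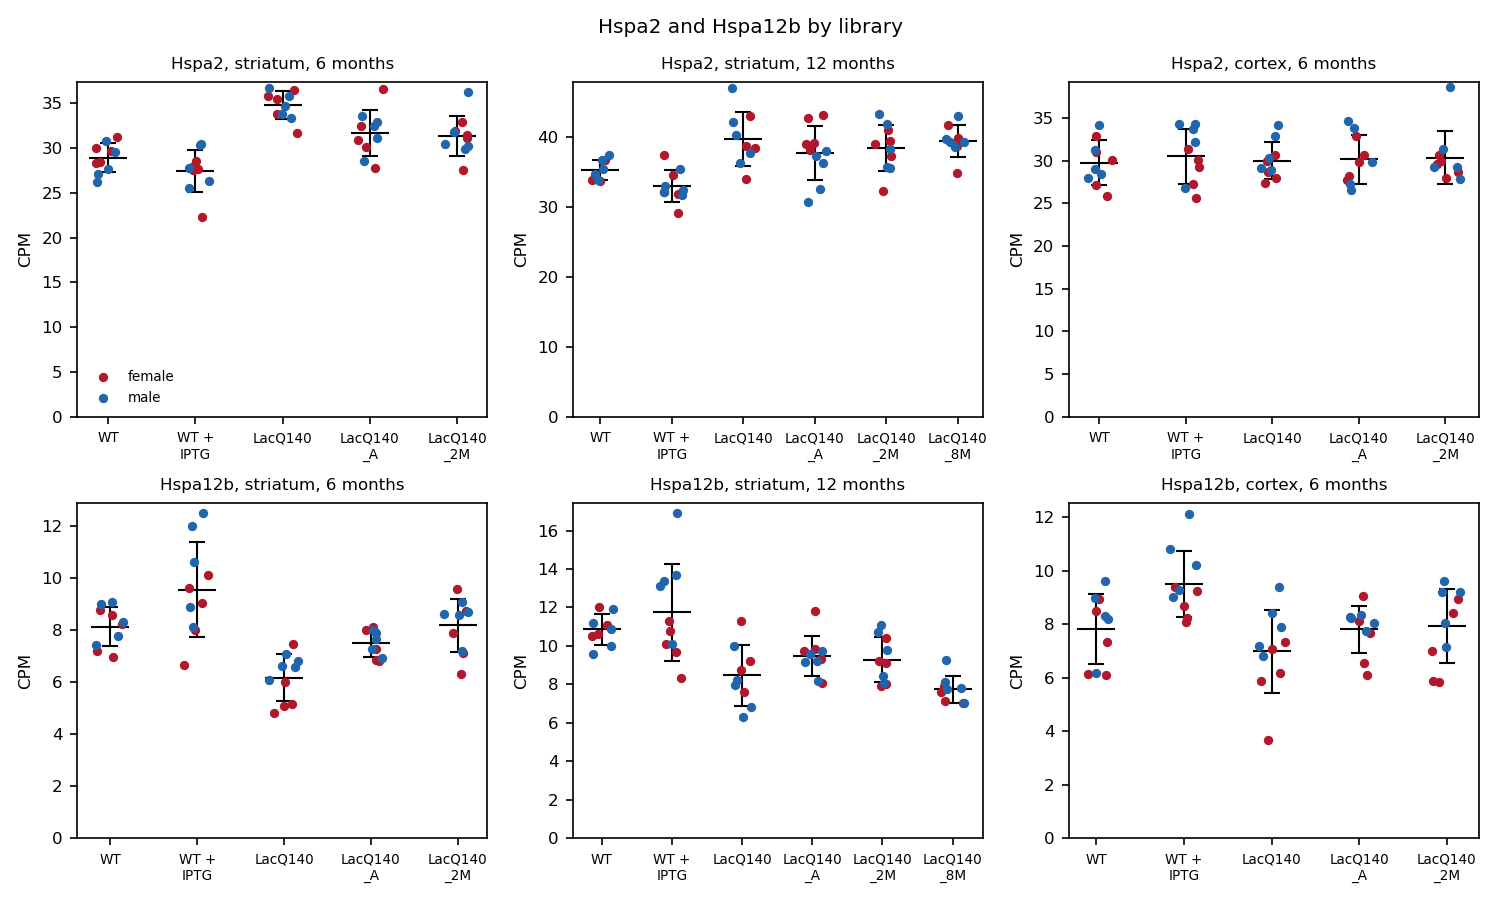
CPM of Hspa2 (top) and Hspa12b (bottom) in each library of each group in the 6-month striatum, the 12-month striatum and the 6-month cortex; red points are females, blue points males, and bars give the mean and SD. In the 6-month striatum the LacQ140 points of Hspa2 lie wholly above those of WT + IPTG, whereas those of Hspa12b lie low and rise again in LacQ140_2M.

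The other HSP70 and HSP110 type genes changed less. Hspa4, an HSP110 that exchanges nucleotide on HSP70, was lower by log2 0.25 at 6 months (adjusted p = 4.4e-04) and 0.20 at 12 months (adjusted p = 0.00192) in the LacQ140 striatum, both under the 20% bound. Hspa9 differed by 0.04 and 0.00, and Hsp90ab1 by 0.02 and 0.01, at 6 and 12 months. Hsp90ab1 is the most abundant member, and its SE was 0.0378 at 6 months and 0.0494 at 12 months.

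Of the J proteins, Dnajb5 (chr4:42949814-42959425, plus strand), a class B protein of the same type as the heat-inducible Dnajb1, fell in the striatum at both ages. At 6 months it measured 70.9, 89.3 and 110 CPM in LacQ140 against 75.4, 120 and 134 CPM for WT + IPTG (log2 -0.33, SE 0.1054, adjusted p = 0.0261). The groups overlapped, but all 10 LacQ140 libraries were below the control median. WT without IPTG ran from 88.3 to 151 CPM with a median of 111. LacQ140_A had a median of 76.6 CPM and was the only member called against WT (log2 -0.40, adjusted p = 0.0373), in a comparison that called 0.91% of all genes. That call was lost without WT M3 (-0.36, adjusted p = 0.108), with the heat score as a covariate and with the replicate block. At 12 months Dnajb5 differed between LacQ140 and WT + IPTG by log2 -0.49 (SE 0.1157, adjusted p = 0.00113), and this change differed from that in the cortex by -0.48 (SE 0.1267, adjusted p = 0.0171), with 2.8% of all genes called. The 12-month controls, however, were themselves unlike, as described below.

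Class C gave scattered calls. Dnajc2, a ribosome-bound J protein, measured 24.7, 35.9 and 43 CPM in the 6-month LacQ140 striatum and 37.4, 42.2 and 48.6 CPM in WT + IPTG (log2 -0.27, SE 0.0683, adjusted p = 0.00337). At 12 months it differed by log2 -0.24 (adjusted p = 0.0133), just under the 20% bound. Dnajc8 had a median of 86.4 CPM in the 12-month LacQ140 striatum, 104 in WT + IPTG and 114 in WT (LacQ140 against WT + IPTG, log2 -0.27, adjusted p = 7.24e-04). All 9 of its LacQ140 libraries were below the WT + IPTG median, and its change at 6 months was -0.16 (adjusted p = 0.0318). Dnajc4 rose at 12 months from a median of 9.98 to 12.6 CPM (log2 0.27, SE 0.0684, adjusted p = 0.00309), and its change exceeded that in the cortex by 0.35 (adjusted p = 0.0369). Without LacQ140 M2 this difference was 0.32 and did not pass (adjusted p = 0.0864), and the striatal call was lost in 10 of 19 fits that each left out 1 library. Members at synapses and endosomes did not pass: Dnajc5, the cysteine string protein of synaptic vesicles, differed by 0.09 at 6 months and 0.01 at 12 months, Dnajc6 (auxilin, which uncoats clathrin vesicles) by 0.09 and 0.17, and endosomal Dnajc13 by 0.01 and -0.02.

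In the 6-month cortex 3 of 72 members fell and none rose, beside 0.881% of 35987 genes called (0.378% higher and 0.503% lower). Above 1 CPM, where most members lie, the shares were 4.92% of members and 1.95% of all genes. Dnajc1, a J protein of the endoplasmic reticulum membrane, measured 12.8, 14.3 and 16.2 CPM in LacQ140 against 17.7, 18.7 and 19.6 CPM for WT + IPTG, with no overlap (log2 -0.38, SE 0.0553, adjusted p = 8.87e-05). WT without IPTG ranged from 14.7 to 16.8 CPM, however, below every WT + IPTG library. Split by sex, Dnajc1 alone was called in females and no member in males (0.114% and 0.0834% of all genes). Against both controls pooled, the change of Dnajc1 was -0.26, under the 20% bound, and Dnajc21 was the 1 member called. Dnajc21, a J protein of ribosome assembly, had medians of 19.7 CPM in LacQ140, 27.2 in WT + IPTG and 24.8 in WT (log2 -0.38 against WT + IPTG, SE 0.083, adjusted p = 0.00929). Exons of Dnajc1 share 365 bases with Mllt10 on the opposite strand, and whether the counting used strand is not given in the sources used here, so reads of the overlap cannot be assigned. In the 12-month cortex edgeR called 0 of 72 members beside 0.0899% of 34493 genes. There 13 members had an unadjusted p under 0.05, beside 8.68% of all genes, and DESeq2 called 1, beside 0.186%.

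None of the 9 TRiC genes was called in the LacQ140 striatum at either age, beside 7.93% and 9.44% of all genes, shares at which a count of 0 in so short a list is near the background. They had median log2 fold changes of -0.045 at 6 months and 0.053 at 12 months. At 12 months Cct2 and Cct6a were each higher by 0.12 with adjusted p = 0.0333 and 0.0212, a difference under the 20% bound. Cct3, Cct5 and Cct7 differed by -0.05, -0.07 and -0.06 at 6 months and by 0.05, -0.01 and -0.06 at 12 months. The 9 include Cct6b and Cct8l1, whose group means were only 0.12 to 0.35 and 0.0118 to 0.114 CPM. Tcp1, which codes for another TRiC subunit, is not a member by its symbol. Of the mitochondrial pair, Hspd1 differed by -0.06 and -0.02, and Hspe1 by -0.21 (adjusted p = 0.148) and -0.10.

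Hspd1 and Hspe1 lie head to head on chromosome 1 and share 1 promoter, shown here because it holds the heat shock element, the motif bound by heat shock factors, as does that of Dnajb6. The search used 3 units of the element (GAANNTTCNNGAA and its reverse complement TTCNNGAANNTTC) in RefSeq promoters of GRCm38.p6 that run from 250 bases before to 50 bases after each gene's start. It matched 3 of the 59 members in that table (5.08%), beside 179 of its 27025 genes (0.662%). Hspd1 and Hspe1 matched at the same bases, so this count is not of separate promoters. The 215 bases between both RefSeq start sites, chr1:55087933-55088147 on the plus strand, hold 2 overlapping matches that together cover the 18 bases in capitals. Dnajb6 holds 1 match within the 150 bases before the first of its RefSeq starts, chr5:29735748-29735897 on the plus strand. The GENCODE annotation behind the counts starts these genes elsewhere: it lets Hspd1 and Hspe1 overlap and begins Dnajb6 at base 29735688, so by it the first stretch lies within Hspd1 and the second within Dnajb6.
Hspd1 and Hspe1: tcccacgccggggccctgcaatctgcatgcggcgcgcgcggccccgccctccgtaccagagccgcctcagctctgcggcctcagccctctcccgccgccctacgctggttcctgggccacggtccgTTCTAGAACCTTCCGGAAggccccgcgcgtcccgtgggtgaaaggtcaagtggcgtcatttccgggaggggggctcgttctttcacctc
Dnajb6: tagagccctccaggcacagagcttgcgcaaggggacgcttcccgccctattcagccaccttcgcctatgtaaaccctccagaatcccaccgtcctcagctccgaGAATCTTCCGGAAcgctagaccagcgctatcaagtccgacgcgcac
With only 2 units (GAANNTTC or TTCNNGAA, which the longer motif contains), 17 of 59 members matched (28.8%) beside 4587 of 27025 genes. The matched members were Cct2, Cct5, Cct6a, Cct8l1, Dnaja1, Dnaja4, Dnajb4, Dnajb6, Dnajc10, Dnajc27, Dnajc5g, Hspb1, Hspb3, Hspb6, Hspb8, Hspd1 and Hspe1. Of members that rose with the heat score in the 12-month striatum, Dnaja1, Dnaja4, Dnajb4, Hspb1 and Hspd1 matched. Dnajb2, Dnajb5, Dnajc1, Dnajc21, Dnajc28 and Hspa4 rose there without a match, and Cct4 and Hsp90ab1 were not among the promoters searched. A match describes the letters and no more.

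Of the 8 small heat shock proteins, 1 rose and 2 fell in the 12-month striatum, where 9.44% of all genes were called. Hspb1 (chr5:135887919-135889563, plus strand), known as HSP27 or HSP25 and itself inducible by heat, fell by log2 0.67 (SE 0.1316, adjusted p = 8.82e-05), with 4.76, 6.25 and 11.9 CPM in LacQ140 against 6.72, 10.3 and 16.1 CPM for WT + IPTG. Hspb8, which works with Bag3 in selective autophagy, had medians of 17.6 and 21.6 CPM (log2 -0.28, SE 0.0634, adjusted p = 6.09e-04), and all 9 LacQ140 libraries were below the WT + IPTG median. Hspb11, also known as the ciliary transport protein IFT25, rose from a median of 5.11 to 6.91 CPM (log2 0.32, SE 0.0887, adjusted p = 0.00671). WT without IPTG, though, had a median of 6.4 CPM for Hspb11, close to LacQ140. At 6 months none of the 8 passed; the change of Hspb1 was -0.33 (adjusted p = 0.159), and it was called with the heat score as a covariate (-0.39, adjusted p = 0.00204) and against both controls pooled (-0.47, adjusted p = 0.00824), a pool that holds the WT male M3 at 20.5 CPM.

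WT + IPTG differed from WT in 2 members, both in the 12-month striatum, where 0.218% of all genes were called (0.136% higher). Above 1 CPM the shares there were 3.33% of members and 0.463% of all genes. Dnajb5 was higher in WT + IPTG than in WT by log2 0.54 (SE 0.1159) and Hspb1 by 0.62 (SE 0.1318), each with adjusted p = 0.0303. Neither was called with the heat score as a covariate, at 0.27 for both. The 12-month Dnajb5 medians were 105 CPM in WT, 150 in WT + IPTG and 95.5 in LacQ140, and those of Hspb1 6.99, 10.3 and 6.25 CPM. LacQ140 thus lay near WT and below WT + IPTG in both genes. In the other 3 settings edgeR called 0 members for IPTG, beside 0.584%, 0.609% and 0% of all genes in the 6-month striatum, the 6-month cortex and the 12-month cortex. At an unadjusted p under 0.05 there were 3, 7 and 6 members in the same order, beside 8.88%, 11.9% and 5.8% of all genes.

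The 12-month difference was seen in females. In WT + IPTG females Hspb1 measured 11.2, 12.1 and 16.1 CPM and Dnajb5 151, 156 and 182 CPM, whereas the males measured 6.72, 8 and 9.4 CPM and 77.9, 128 and 148 CPM. The lowest female thus exceeded the highest male in both genes. In WT the order of the sexes was the other way for Dnajb5, with 69.1 to 96.3 CPM in females, all below the males with their median of 110 CPM. Tested by sex, in a split chosen after the values were seen, WT + IPTG females differed from WT females in 12 of 71 members (8.22% of all genes called). Those that rose were Hspa4, Hspa4l, Dnaja1, Dnajb4, Dnajb5, Dnajc1, Dnajc3, Dnajc6, Dnajc13 and Hspb1, and those that fell Dnajc19 and Hspb11. Dnajb5 rose by log2 1.06 (SE 0.1395, adjusted p = 8.6e-07) and Hspb1 by 0.82 (SE 0.1443, adjusted p = 9.27e-05). In males edgeR called 0 of 71 members (0.00283% of genes), with 0.08 for Dnajb5 and 0.31 for Hspb1.

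The difference between the sexes was itself called in 8 members, beside 4.38% of all genes, and in all 8 the change was higher in females. It was 0.98 for Dnajb5 (adjusted p = 0.00193), 0.57 for Hspa4l, 0.46 for Dnaja1, 0.42 for Dnajc6 and Dnajc13, 0.41 for Dnajc3, 0.32 for Hspa4 and 0.30 for Hsp90ab1 (adjusted p = 0.0323). For Hspb1 it was 0.50 and was not called (adjusted p = 0.155). Low WT females enter these differences: in Dnajb5, Dnajc6, Dnajc13, Hspa4 and Hspa4l every WT female was below every WT male. For Dnajc13 the WT + IPTG females at 60.5 to 63.8 CPM lay within the WT males at 55.7 to 65.8 CPM, with WT females at 48.5 to 52.6 CPM, and for Dnajc6 the medians were 177, 173 and 145 CPM in the same order. The heat score of the WT + IPTG females was high, at 6.78 to 7.35, and did not overlap that of WT females at 5.78 to 5.95. With that score as a covariate no member was called in females (0.116% of all genes), but score and group cannot be told apart in such a fit. The transcript length slope was 0.369 to 0.401 in these females, 0.222 to 0.287 in WT females and 0.318 to 0.374 in WT males, and with it as a covariate Dnajb5 and Hspb1 were still called at 1.04 and 1.10, with 6 members and 3.33% of all genes called. Cages held mice of 1 sex, genotype and treatment, so handling of those cages and an effect of IPTG in females cannot be told apart.

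These controls bear on the 12-month striatal calls. Among males only, LacQ140 differed from WT + IPTG in 6 of 71 members (7.67% of all genes): Hspa2 and Dnajc6 rose, and Hspa12b, Dnajc8, Hspb8 and Hspb1 fell. Females gave 7 members (7.99% of all genes), with Dnajc4 risen and Hspa4, Hspa4l, Dnajb4, Dnajb5, Hspb8 and Hspb1 fallen. Dnajb5 was -0.31 in males (adjusted p = 0.136) and -0.62 in females (adjusted p = 0.00103). Hspb1 was called in both, at -0.50 in males and -0.73 in females. Hspa12b was -0.78 in males (adjusted p = 3.27e-07) and -0.13 in females (adjusted p = 0.682), a difference of 0.65 that did not pass (adjusted p = 0.181). With the heat score as a covariate in both sexes, LacQ140 and WT + IPTG still differed in Dnajb5 by -0.36 (adjusted p = 0.00524) and in Hspb1 by -0.50 (adjusted p = 3.02e-04). Among females alone with that covariate, neither was called (Dnajb5 -0.22, adjusted p = 0.528, and Hspb1 -0.39, adjusted p = 0.172), where 5.02% of all genes were. The scores of LacQ140 females, 5.9 to 6.61, did not overlap those of WT + IPTG females, so this fit cannot tell score and group apart. With the length slope as the covariate in females Dnajb5 and Hspb1 were called, at -0.61 and -0.93, beside 7.06% of all genes. Against both controls pooled, Dnajc4, Dnajc8, Hspa12b and Hspb1 were called at 12 months and Hspa2, Hspb11, Dnajb5 and Hspb8 were not, with Hspb1 at -0.36 and Hspa2 at 0.22.

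**Figure D3:**
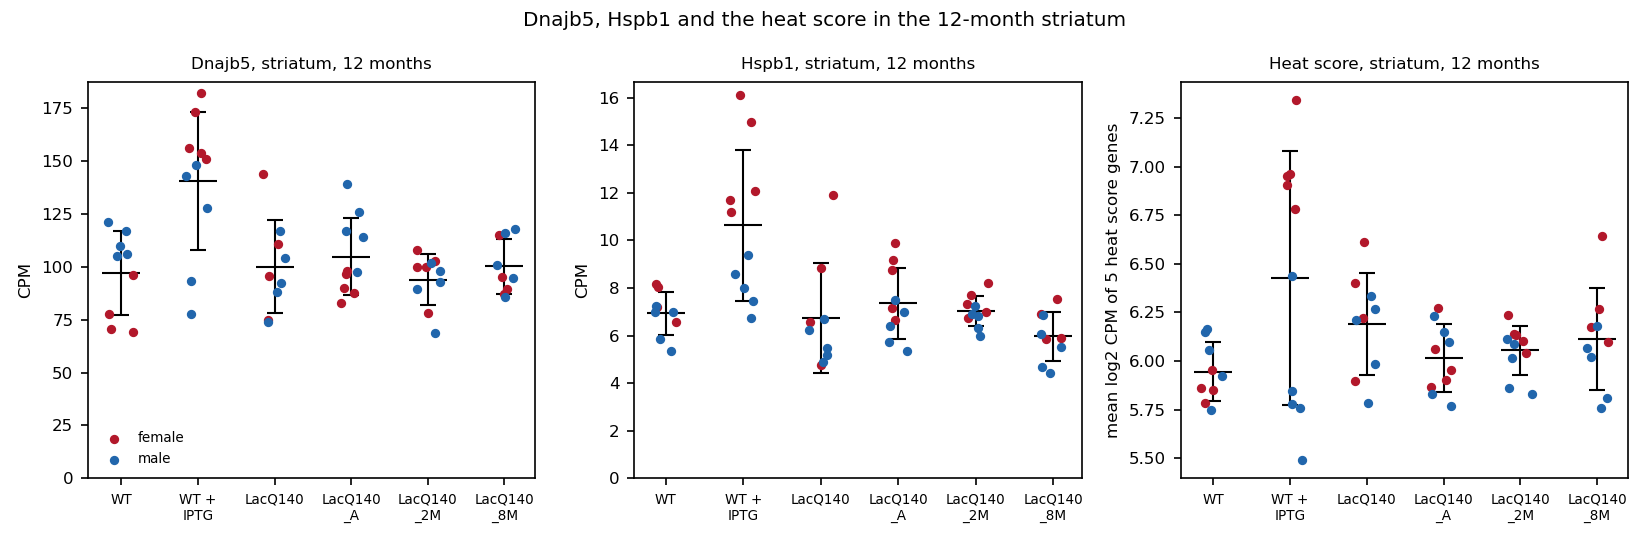
CPM of Dnajb5 (left) and Hspb1 (middle) and the heat score (right, mean log2 CPM of its 5 genes) in each library of the 12-month striatum; red points are females, blue points males, and bars give the mean and SD. The WT + IPTG females lie above the males of their group in all 3 panels, with a heat score of 6.78 or more.

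Some members followed the heat score from library to library within groups. The score was fitted beside the group means, and a member was called at an adjusted p under 0.05 whatever its slope. In the 12-month striatum 13 of 71 members rose with the score, beside 2.18% of all genes: Hspd1, Hsp90ab1, Hspa4, Cct4, Dnaja1, Dnaja4, Dnajb2, Dnajb4, Dnajb5, Dnajc1, Dnajc21, Dnajc28 and Hspb1. Hspb1 rose by log2 0.62 per unit of the score (adjusted p = 1.34e-05), Dnajb5 by 0.50 (adjusted p = 1.81e-04), Dnaja1 by 0.29 (adjusted p = 7.85e-06) and Hsp90ab1 by 0.26. Hspd1 rose by 0.16 (adjusted p = 5.57e-04). Hspe1, from the same promoter, had a slope of 0.12 (adjusted p = 0.173), and the difference between these slopes was not tested. Its log2 CPM had a within-group r of 0.339 with the score (Spearman 0.337, n = 57), and that of Hspd1 0.677 (Spearman 0.623). Hspa12b alone fell, by 0.25 (adjusted p = 0.0423; 2.42% of all genes fell). Without the 5 WT + IPTG females, a set left out after the values were seen, 7 members rose and none fell (0.463% of all genes rose and 0.81% were called in either direction), namely Hspd1, Hspa4, Hsp90ab1, Dnaja1, Dnaja4, Dnajb5 and Hspb1, with slopes of 0.66 for Hspb1 (adjusted p = 0.018) and 0.65 for Dnajb5 (adjusted p = 0.00952). That of Hspa12b was then -0.02 (adjusted p = 0.975).

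At 6 months the score was fitted in the same way. In the striatum Hspb1 (0.81 per unit, adjusted p = 1.53e-10), Dnaja1 (0.22) and Hsp90ab1 (0.17) rose with the score, beside 0.179% of all genes. In the cortex 8 members rose (Hspb1, Hsp90ab1, Hspa2, Dnaja4, Dnajb2, Dnajb5, Dnajb12 and Cct8l1; 3.16% of all genes) and Dnajb9 fell (1.84% of all genes), while edgeR called none as falling in the striatum (0.0754%). These are edgeR's calls over all genes: in the 6-month striatum (n = 50) the within-group r of log2 CPM with the score was 0.54 for Dnaja4, 0.464 for Dnajb5, 0.458 for Dnajb4, 0.408 for Dnajc1, 0.4 for Dnajc14 and -0.378 for Dnajb3, none of which edgeR called there. Hspb1 had 20.5 CPM in the striatum and 25.9 CPM in the cortex of the WT male M3, above every other 6-month library. Without that mouse Hspb1 was the 1 member still rising in the striatum (0.467% of all genes, and 0.671% in either direction), and 10 rose and 2 fell in the cortex (5.67% of all genes rising, and 9.44% in either direction). In that cortical fit Dnaja4, Cct8l1 and Dnajb9 were no longer called. Dnajc11, Dnajc16, Dnajc22 and Dnajc30 were newly called as rising, and the 2 that fell were Dnajc15 and Hspb11. In the 12-month cortex edgeR called 0 members (0.0348% of all genes), although the slope of Hspb1 was 1.09 (adjusted p = 0.279).

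**Figure D4:**
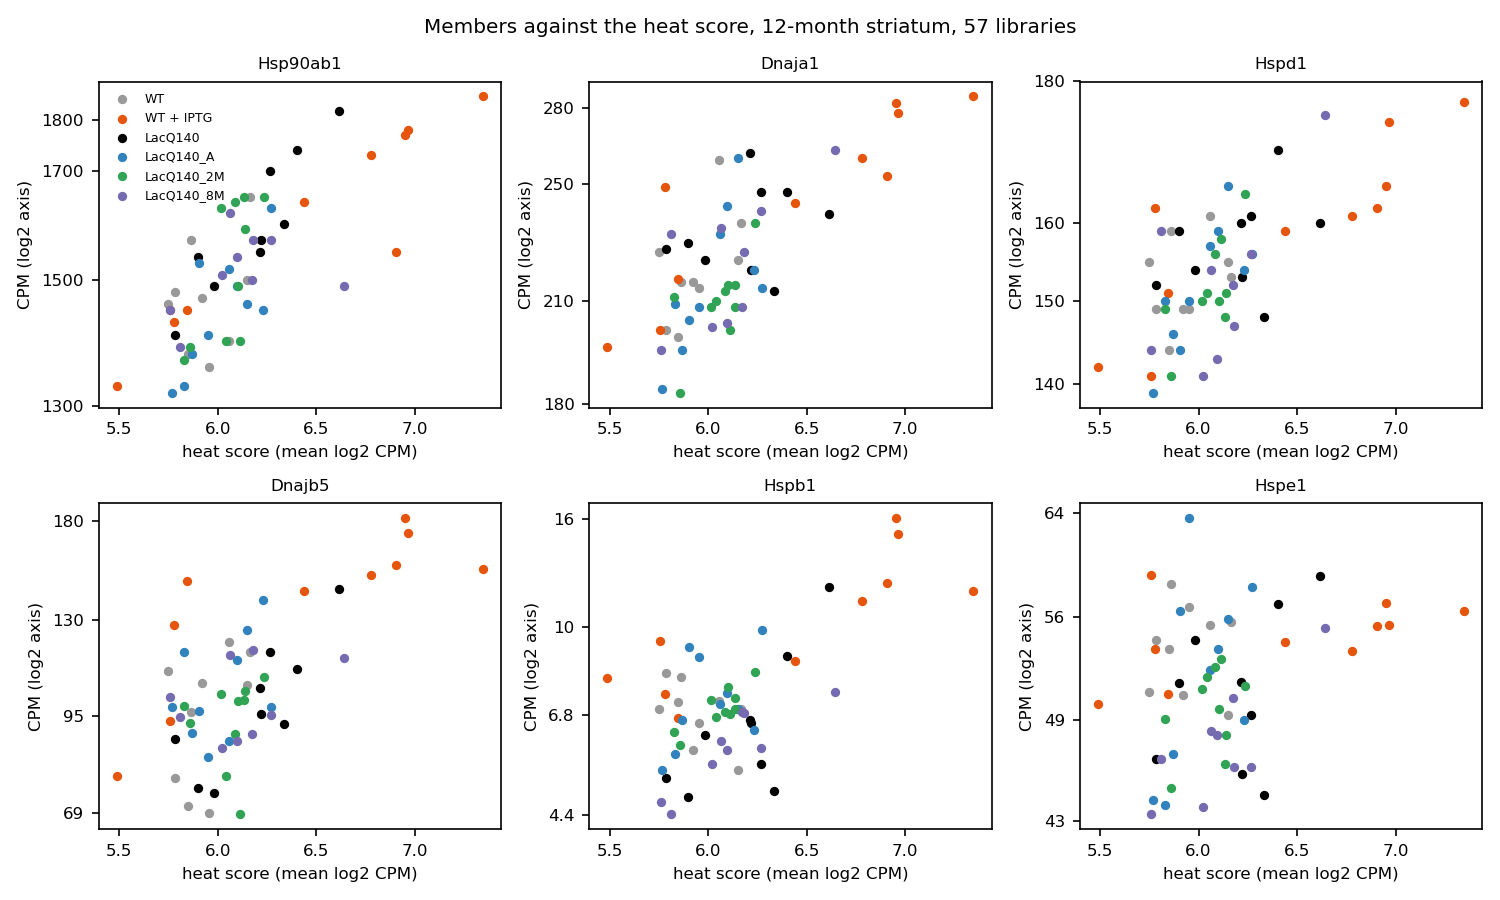
CPM of 6 members on a log2 axis against the heat score in the 57 libraries of the 12-month striatum, with 1 colour for each group. Hspb1 and Dnajb5 rise most steeply, and the WT + IPTG libraries of high score reach the highest values of Hspb1.

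The relation of the chaperonin pair across libraries differed in sign between settings and moved with the length slope. Within groups, log2 CPM of Hspd1 and Hspe1 had r = 0.477 in the 12-month striatum (Spearman 0.51, permutation p adjusted over 4 relations 1.6e-04, n = 57, and 0.509 without the 2 farthest libraries). In the 6-month cortex r was -0.689 (Spearman -0.706, permutation adjusted p = 2e-05, n = 50, and -0.699 without the 2), and in the 12-month cortex -0.65 (Spearman -0.592, permutation adjusted p = 2e-05, n = 60, and -0.645 without the 2). In the 6-month striatum it was -0.307 (Spearman -0.374, permutation adjusted p = 0.0634, n = 50). The transcripts differ in length, 2423 bases for Hspd1 and 774 for Hspe1, and the length slope of a library had r = -0.754, -0.888, -0.646 and -0.932 with Hspe1 in the 6-month striatum, 6-month cortex, 12-month striatum and 12-month cortex. With Hspd1 it had r = 0.62, 0.809, 0.13 and 0.642 in the same order, so the relation was weak in the 12-month striatum. Their exons also share 112 bases on opposite strands. After removing the length slope, the r of the pair was 0.312, 0.112, 0.74 and -0.187 in the 6-month striatum, 6-month cortex, 12-month striatum and 12-month cortex.

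Between striatum and cortex of the WT mice, 24 of 72 members were called at 6 months (33.3%, beside 33.2% of all genes, 15.9% higher and 17.3% lower), 11 higher and 13 lower in the striatum. Above 1 CPM the shares were 34.4% of members and 51.3% of all genes. Without the WT mouse M3, 10 were higher and 13 lower. Among the largest differences were those of scarce small heat shock proteins best known from muscle: Hspb3 with 0.272 ± 0.132 CPM in the striatum and 2.56 ± 0.505 in the cortex (SD, n = 10; log2 -3.13), Hspb7 (-2.05) and Hspb2 (-1.28). Dnajc5b was called too, at -1.85 and levels under 0.1 CPM in both tissues. Exons of Hspb2 share 252 bases with Cryab on the opposite strand. Of the other members Dnajc6 was lower in the striatum, with 161 ± 8.81 against 295 ± 38.2 CPM (log2 -0.84), as were Dnajc21 (-1.12, 11.6 ± 1.03 against 24.8 ± 3.62 CPM), Hspa12a (-0.52), Hspa1l (-0.51) and the mitochondrial J protein Dnajc15 (-0.43). Dnajc2 (0.71), Dnajb4 (0.60), Dnajc17 (0.58), Dnajb3 (0.54), Cct3 (0.50), Dnajc7 (0.40), Dnajc8 (0.38) and Dnajb12 (0.37) were higher in the striatum. Hsp90ab1 was higher there by 0.34 (SE 0.0281, adjusted p = 9.74e-12). At a 2-fold bound 5 members were called (12.5% of all genes).

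At 12 months 55 of 71 members were called between the tissues (77.5%, beside 53.8% of all genes, 25.9% higher and 27.9% lower), 27 higher and 28 lower in the striatum. Above 1 CPM, where most members lie, the shares were 85.5% of members and 85.3% of all genes. At a 2-fold bound 25 were called (34.5% of all genes). The differences moved with transcript length: over the 59 members above 1 CPM, Spearman's correlation of log2 fold change with the longest transcript was 0.453 at 12 months and -0.323 at 6 months, a description across genes that share the same libraries. Hspe1, among the shortest, stood at -2.46 and Cct4 at -1.55. With the length slope of each library as a covariate, 6 members were called at 12 months (8.32% of all genes), namely Hspb3, Dnajc6, Dnajc27, Hspa12a, Dnaja1 and Hspa4l, all lower in the striatum. Of these, Hspb3, Dnajc6, Dnajc27 and Hspa12a were also lower at 6 months. Without the covariate Hspa12a (1.02), Hspa4l (0.93) and Dnajc27 (0.31) were higher in the 12-month striatum, so the direction of 3 of the 6 turned with this setting. The length slopes of the tissues did not overlap at 12 months, and tissue and recovery of long mRNAs cannot be told apart in those libraries.

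**Figure D5:**
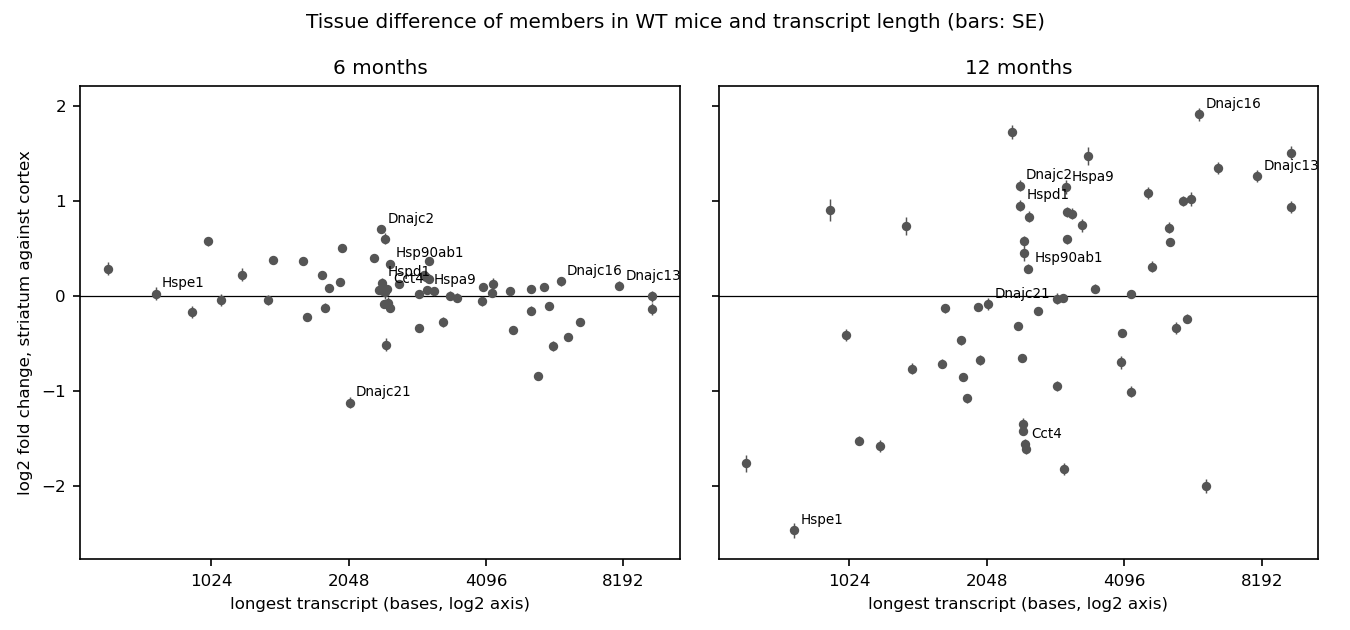
Log2 fold change of striatum against cortex in WT mice (vertical axis, bars are SE) against the longest annotated transcript in bases (log2 axis) for the 59 members above 1 CPM, at 6 months (left) and 12 months (right). At 12 months the Spearman correlation is 0.453, with Hspe1 lowest among the short transcripts and exceptions such as Dnajc15, long and at -1.99, and Hspb1, short and at 0.91.

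The calls on lowering mHtt were few among members and among all genes. Apart from Hspa12b in LacQ140_2M, edgeR called 0 members in the lowered groups against LacQ140, in either tissue at either age. The share of all genes called in the striatum was 1.88% for LacQ140_A at 6 months, and 0.91%, 0.608% and 0.00565% for LacQ140_A, LacQ140_2M and LacQ140_8M at 12 months. In the cortex it was 0.00834% and 0% for LacQ140_A and LacQ140_2M at 6 months, and 0.0435%, 0.0841% and 0% for LacQ140_A, LacQ140_2M and LacQ140_8M at 12 months. At an unadjusted p under 0.05, with no fold bound, the striatal counts were 13 of 72 members for LacQ140_A at 6 months beside 12.0% of all genes, and at 12 months 5 of 71 for LacQ140_A beside 10.4%, 3 for LacQ140_2M beside 8.32% and 7 for LacQ140_8M beside 5.13%. At the same threshold in the cortex, 4 of 72 members for LacQ140_A stood beside 7.47% and 13 for LacQ140_2M beside 9.72% at 6 months. At 12 months 12 for LacQ140_A stood beside 13.2%, 7 for LacQ140_2M beside 5.51% and 0 for LacQ140_8M beside 2.83%. DESeq2 called 1 member in LacQ140_A against LacQ140 in the 6-month striatum, beside 1.99% of all genes. Beside Dnajb5 at 6 months, LacQ140_A differed from WT in Cct8l1 at 12 months (higher in LacQ140_A, adjusted p = 0.00763; 3.15% of all genes), a gene near zero whose group means were 0.0118 to 0.114 CPM. Since LacQ140 is in each of these comparisons as well as in that with WT + IPTG, opposite signs between them are no separate evidence.

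Of 36 cochaperones and regulators, which work with the members, 1 rose (Unc45a) and 3 fell (Chordc1, Ptges3 and St13) in the LacQ140 striatum at 6 months, 4 of 36 beside 7.93% of all genes, with a median log2 fold change of -0.04. At 12 months Bag2 rose and Chordc1 and Hsph1 fell, beside 9.44% of all genes called. In the 6-month cortex Chordc1 fell (0.881% of all genes), and in the 6-month striatum it rose in LacQ140_2M against LacQ140 (1.26%). Of the 5 genes of the heat score, Hspa1a and Hspa1b fell in the 12-month LacQ140 striatum against WT + IPTG (log2 -0.63 and -1.38) and rose in WT + IPTG against WT (1.04 and 1.73), and none was called between LacQ140 and WT + IPTG at 6 months.

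Markers of other cells moved in the same comparisons, and their part in the members' values was not tested. Between LacQ140 and WT + IPTG in the 6-month striatum, 3 of 4 oligodendrocyte markers, 2 of 4 microglia markers, 2 of 4 smooth muscle and pericyte markers, 1 of 4 astrocyte markers, 1 of 4 cortical excitatory neuron markers and 1 of 3 choroid plexus markers fell, and none of 4 ependymal markers was called. At 12 months 2 of 4 oligodendrocyte, 1 of 4 smooth muscle and pericyte and 1 of 3 choroid plexus markers fell, while 1 of 4 cortical excitatory neuron and 1 of 4 ependymal markers rose. In the 6-month cortex 2 of 4 smooth muscle and pericyte markers fell.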

How the data were processed

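Total RNA from frozen striatum and cortex was sequenced on Illumina instruments. The authors deposited expected counts per gene, which need not be whole (32.52% of nonzero values were not) and which were rounded here; the builds named in the submitters' processing notes include GRCm38, and the counting program's use of strand is not given in the sources used here. Genes with at least 1 count in a tissue and age were fitted in edgeR 4.0.16 (TMM, quasi-likelihood, group as the only term, R 4.3.3), with DESeq2 1.42.0 as an alternative; calls needed a Benjamini-Hochberg adjusted p under 0.05 and a change of at least 20%. Tissue contrasts kept the mouse as a block. CPM per kb used the longest GENCODE transcript. The heat score used log2 CPM with a prior count of 2, and correlations used log2(CPM + 0.5) centred within groups and 100000 permutations. The fit was tested on simulated data.

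Genes were named by a rule: called members, the best known chaperones, the highest per length, those near zero, the largest tissue differences and those most and least related to the heat score. The members, lists (9 of markers) and rule were chosen with earlier results of these data known. Replicate numbers did not pair the samples. No within-group pair of 963 agreed within sampling noise (chi-square over degrees of freedom at least 6.5). The labels give each library its own mouse number within a group; p-values measure the spread between these libraries. The result of 1 gene of the lists is not reported here.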

Additional observations from a re-analysis of the deposited data

Results flagged for a closer look

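The LacQ140 against WT + IPTG change differed between striatum and cortex in 1 of 72 members at 6 months (1.39%), beside 1.12% of all genes. At 12 months it differed in 2 of 72 (2.78%), beside 2.8% of all genes. The change was higher in the striatum by log2 0.35 for Hspa2 at 6 months and by 0.35 for Dnajc4 at 12 months. It was lower there by 0.48 for Dnajb5 at 12 months (difference -0.48). Without LacQ140 M2 the difference of Dnajc4 did not pass.

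In the 12-month striatum the WT + IPTG against WT change differed between females and males in 8 of 71 members, beside 4.38% of all genes. The split was made after the values were seen. Females minus males was 0.98 for Dnajb5, 0.57 for Hspa4l, 0.46 for Dnaja1, 0.42 for Dnajc6, 0.42 for Dnajc13, 0.41 for Dnajc3, 0.32 for Hspa4 and 0.30 for Hsp90ab1 on the log2 scale.

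Hspb8 in the 12-month striatum of WT + IPTG had 1 library, female F2, at 24.5 CPM, with the next at 22.2 CPM and a gap of 0.568 of the group's range. This was 1 of 37 groups examined for such a library, and chance gives about 1 in 20. The call of Hspb8 at 12 months was lost without it.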

How the results depend on the processing

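No member called in a comparison between groups of mice reversed its direction in the alternative fits of that comparison. Named members that were not called were not checked for this. Members called between LacQ140 and WT + IPTG in the 6-month striatum went from 4 to 10 with no fold bound (all genes 7.93% to 11.8%) and 2 in males only, and to 5 against both controls pooled (7.57%, Hspb1 gained). In the 12-month striatum they went from 8 to 15 with no fold bound (all genes 9.44% to 14.0%) and 4 against both controls pooled (8.97%), and in the 6-month cortex from 3 to 6 with only the groups compared (all genes 0.881% to 1.56%), 1 against pooled controls (1.88%), 1 in females and 0 in males. In the 12-month cortex they went from 0 to 1 by DESeq2 (all genes 0.0899% to 0.186%), 1 with the length slope as a covariate (0.409%) and 3 with only the groups compared (1.41%). LacQ140_A against LacQ140 in the 6-month striatum gave 1 by DESeq2 and 1 with filterByExpr, from 0 (all genes 1.99% and, of the fewer genes kept, 3.96%, from 1.88%). LacQ140_A against WT gave 0 from 1 at 6 months with the heat score and 0 without WT M3 (all genes 0.321% and 0.461%, from 0.91%), and at 12 months 0 with filterByExpr and 2 with the length slope (6.46% and 3.58%, from 3.15%). WT + IPTG against WT in the 12-month striatum gave 0 from 2 with the heat score (all genes 0.00283%, from 0.218%), 12 in females and 0 in males. Tissue calls with a 2-fold bound were 5 at 6 months and 25 at 12 months, and 6 at 12 months with the length slope. The difference between the tissues in the LacQ140 change at 12 months gave 6 with filterByExpr and 1 without LacQ140 M2, from 2 (all genes 6.59% and 2.38%, from 2.8%). Members rising or falling with the heat score in the 12-month striatum went from 14 to 7 without the 5 WT + IPTG females, and in the 6-month striatum from 3 to 1 without WT M3. Splits by sex, pooled controls and fits without WT M3, the WT + IPTG females or, outside the LacQ140 against WT + IPTG contrast, LacQ140 M2 were chosen after seeing the data. The cause of these shifts was not tested.

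Mice with the same replicate number had a mean r of deviations of 0.076 to 0.089, against 0.047 to 0.131 for other numbers of the same sex, and 45.2 to 55.0% of the same-number pairs were over 0.1. The same-number r was the higher in the 12-month cortex only. The numbers were not taken to pair mice, since not every pair was over 0.1. With the replicate block, LacQ140_A against WT in the 6-month striatum gave 0 members and WT + IPTG against WT in the 12-month striatum 1, and Dnajc8 at 12 months was lost (-0.26). Without the mouse block the same difference between the tissues at 12 months gave 1.

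Leaving out 1 library at a time gave 2 to 5 members in the 6-month striatum, 6 to 10 in the 12-month striatum, 2 to 4 in the 6-month cortex and 0 in the 12-month cortex, while the genes called in all were 2509 to 2967, 3089 to 3565, 158 to 405 and 15 to 47. At 6 months Hspa2 and Hspa12b were called in 20 of 20 fits, Dnajb5 in 14 (lost without LacQ140 M1 or M2, or WT + IPTG F2, F3, M1 or M3) and Dnajc2 in 15 (LacQ140 F5, M1 or M2, or WT + IPTG F3 or M4). At 12 months Hspa2 was called in 14 of 19 (lost without LacQ140 F5, M2 or M4, or WT + IPTG F3 or M1), Dnajc8 in 13 (LacQ140 F3, F5 or M3, or WT + IPTG M1, M2 or M4) and Dnajc4 in 9. In the 6-month cortex Hspa12b was called in 16 of 20 (lost without LacQ140 F1 or F5, or WT + IPTG M2 or M3).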
